A study of Mus musculus with 17 samples.

Results

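CD11c+ and CD11c- microglia sorted from mice with experimental autoimmune encephalomyelitis (EAE) were compared by RNA sequencing, with 3 libraries of each subset, 6 of the 17 libraries of the series. The members were the libraries labelled as CD11C positive (1, 2 and 3) and as CD11C negative (4, 5 and 6) from EAE mice, and every gene at 1 CPM (the count scaled to library depth) or more in at least 3 of these 6 libraries entered, which left 12022 of 41388 gene identifiers. EAE was induced in young adult female C57BL/6 mice by immunization with a myelin oligodendrocyte glycoprotein peptide in Freund's adjuvant containing mycobacteria, together with pertussis toxin, and symptomatic mice were used. Both subsets therefore came from mice given the same immunization protocol, adjuvant and toxin, and they were sorted by surface CD11c within a CD45dim CD11b+ gate. Each library was made from a pool of mice, so the spread between libraries is a spread between pools. The paper states that the EAE pools came from separate immunizations. The labels do not record which library came from which, so the immunization rounds may differ between subsets. The other libraries were 4 neonatal CD11c+, 4 neonatal CD11c- and 3 adult libraries from unmanipulated mice, which served for the estimate of spread and as reference levels. The neonatal mice were at postnatal days 4 to 6 and, by the paper's account, of mixed sex. The labels of the adult libraries disagree, naming total microglia in one field and CD11C negative in another, so adult levels are those of adult microglia of an uncertain CD11c gate.

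CD11c is the integrin alpha X chain, encoded by *Itgax*, which pairs with the beta 2 chain to form complement receptor 4. In the healthy adult brain few microglia carry it, whereas it appears on a larger share of microglia around damaged myelin, in aging and in early postnatal white matter. Such cells are known for genes of phagocytosis and lipid handling, for the growth factor *Igf1* and for osteopontin (*Spp1*). The comparison addresses what else sets the CD11c+ cells apart from the CD11c- cells of the same inflamed tissue.

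Libraries held 5966800 to 10436066 counts, and 3 counts corresponded to 0.288 to 0.503 CPM. Levels below are CPM scaled by TMM factors, which were 0.974 to 1.027 in the 6 libraries. CD11c+ library 1 stood apart. It was the shallowest of the 6, mitochondrial genes took 2.23% of its counts against 1.42% and 1.15% in libraries 2 and 3, and its log CPM correlated with those libraries at 0.962, whereas libraries 2 and 3 correlated with each other at 0.991. The mitochondrial share also differed between the subsets, with all CD11c+ libraries above the CD11c- libraries (0.823% to 0.917%), and its part in the results was not tested. Neutrophil granule genes, from a list of 22, summed to 7562, 9000 and 14380 CPM in CD11c- libraries 4, 5 and 6 but to 85.1, 140.5 and 139.4 CPM in CD11c+ libraries 1, 2 and 3, with *Ngp* at 1142 to 2192 against 10.3 to 10.6 CPM and *Ltf* at 1118 to 2255 against 9.59 to 10.1 CPM. A second list of 50 neutrophil genes beyond granules summed to 2530, 2722 and 3701 against 1580, 1538 and 1385 CPM. Results are therefore given outside both lists and also without library 1.

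In the EAE comparison 134 genes (1.11% of those tested) were called higher and 256 (2.13%) lower in CD11c+ microglia, where a gene was called if its adjusted p (edgeR quasi-likelihood test, Benjamini-Hochberg) was at or below 0.01 and its log2 difference reached 1 in either direction. None of the 134 higher genes was on a neutrophil list, so they made up 1.12% of the 11962 genes outside the lists (no neutrophil list gene was higher at an unadjusted p under 0.05 either, nor by DESeq2), and 54 of the 60 neutrophil list genes tested were called lower, which left 202 lower genes outside the lists (1.69%). Without library 1 the counts were 126 higher (1.05%) and 235 lower (1.95%), and 186 lower outside the lists (1.55%). Of the genes called with all libraries, 106 of 134 higher and 216 of 256 lower genes were also called without library 1, all 390 kept their direction, and 113 and 223 stayed past the adjusted p. At any fold, 1.87% of genes rose and 2.99% fell with all libraries, and 2.21% rose and 2.89% fell without library 1, the background against which the gene lists below are read. The number of higher genes varied between fits. It was 71 when only the 6 EAE libraries were fitted, 66 of them among the 134, and 73 without CD11c- library 6, while lower genes outside the lists numbered 133 and 135 in these fits.

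The sorted subset was checked first through the gene behind the sort. *Itgax* (chromosome 7, 128129547 to 128150657, plus strand) stood at 79.8, 76.8 and 56.2 CPM in CD11c- libraries 4, 5 and 6 and at 442, 318 and 382 CPM in CD11c+ libraries 1, 2 and 3. The libraries did not overlap, and the log2 difference of 2.42 ± 0.18 (SE) had an adjusted p of 3.35e-07 by edgeR. Because the sort used this protein, the difference checks the labels and is not a finding, and the adult mean, from libraries whose CD11c gate is uncertain, was 31.1 CPM.

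*Gpnmb*, a glycoprotein of lysosome-rich phagocytes (chromosome 6, 49036546 to 49070929, plus strand), showed the largest fold change among the 15 leading genes. It was at 2.45, 1.42 and 1.02 CPM in CD11c- libraries and at 74.6, 37.2 and 33.8 CPM in CD11c+ libraries, with library 1 the highest. The log2 fold change was 4.67 ± 0.38 (adjusted p = 7.51e-07, edgeR) and 4.23 without library 1. *Igf1*, which encodes insulin-like growth factor 1, came next at 1.17, 0.567 and 0.512 against 22.2, 9.34 and 5.38 CPM. All CD11c+ libraries lay above all CD11c- libraries, with library 1 well above libraries 2 and 3, and the log2 fold change fell from 3.60 ± 0.48 (adjusted p = 8.42e-05, edgeR) to 2.92 without it. *Spp1* reached 446, 518 and 369.8 CPM in CD11c+ libraries against 94.2, 74.6 and 60.4 CPM, a log2 difference of 2.54 ± 0.26 (adjusted p = 5.78e-06, edgeR) that was 2.53 without library 1. The *Spp1* libraries did not overlap between subsets.

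**Figure D1:**
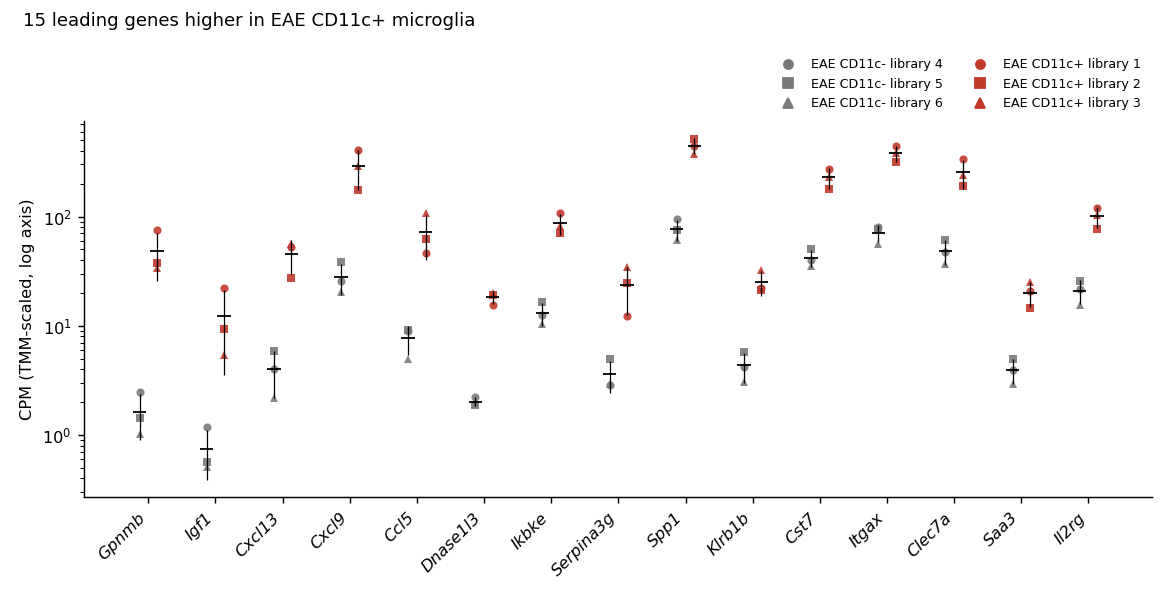
Scaled CPM (log axis) of the 15 called higher genes with the largest fold changes outside the neutrophil lists and a CD11c+ mean of at least 10 CPM, for CD11c- libraries 4, 5 and 6 (grey) and CD11c+ libraries 1, 2 and 3 (red); lines mark the mean and 1 SD of 3 libraries. All red points lie above the grey points of the same gene, and CD11c+ library 1 (circle) is the highest red point for *Gpnmb*, *Igf1*, *Cxcl9*, *Clec7a* and *Cst7*, among others, but the lowest for *Ccl5*, *Dnase1l3* and *Serpina3g*.

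The study associates 20 genes with CD11c+ microglia, chosen in part on these samples, so their direction is not independent evidence. Of these, 16 rose and none fell (adjusted p of 0.01 or less), 15 rose without library 1, 12 in the fit of the 6 EAE libraries alone, and their median log2 fold change was 2.20 against 0.02 over all genes tested. *Clec7a*, the beta-glucan receptor dectin-1, was at 46.8, 61.0 and 36.5 CPM in CD11c- and 336, 189.6 and 239 CPM in CD11c+ libraries (log2 2.39 ± 0.23, adjusted p = 3.01e-06, edgeR). *Hpse*, the heparan sulfate cutting enzyme heparanase, rose from 6.01 to 8.88 CPM to 33.0 to 39.4 CPM, and *Fabp5*, a fatty acid carrier, from 2.36 to 3.09 CPM to 8.94 to 15.7 CPM. The scavenger receptor gene *Colec12* was at 0.640 to 0.853 CPM against 6.89 to 12.9 CPM. The 4 genes that did not pass by edgeR were *Stra6l*, *Ak4*, *Mmp12* and *Ntn1* (DESeq2 called all but *Ntn1*), each under 0.4 CPM in every CD11c- library. *Saa3*, an acute phase gene at 2.94 to 4.91 against 14.6 to 25.0 CPM, passed with all libraries (adjusted p = 0.00584, edgeR), but not without CD11c+ library 1 (0.0101) or 3, nor without any single CD11c- library.

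Several chemokine genes were among those with the largest differences. *Cxcl9*, the interferon-gamma induced attractant of T cells (chromosome 5, 92321347 to 92328079, minus strand), was at 25.8, 38.0 and 20.5 CPM in CD11c- libraries and at 403, 175 and 288 CPM in CD11c+ libraries. The subsets did not overlap, and the log2 fold change was 3.34 ± 0.27 (adjusted p = 7.51e-07, edgeR) and 3.02 without library 1. *Cxcl13*, the attractant of B cells, was at 4.05, 5.86 and 2.18 against 52.6, 27.5 and 56.5 CPM (log2 3.39 ± 0.37, adjusted p = 0.000126, edgeR), and *Ccl5*, an attractant of T cells and monocytes, at 8.85, 9.16 and 4.99 against 45.9, 61.9 and 108 CPM (log2 3.18 ± 0.34, adjusted p = 7.46e-06, edgeR). *Ccl5* was lowest in library 1 of the CD11c+ libraries. In all, 3 of 7 tested CXC and other chemokines rose (*Cxcl9*, *Cxcl13*, *Cxcl16*), as did 2 of 12 CC chemokines (*Ccl5*, *Ccl22*) (*Ccl22* not in the fit of the 6 EAE libraries alone, adjusted p = 0.0135, edgeR), and none fell. *Ccl22*, a ligand of CCR4, was the lowest of them at 0.128 to 0.661 against 2.06 to 4.96 CPM, with a log2 difference of 2.46 ± 0.40. *Ccl2* (213 to 345 against 214 to 435 CPM), *Ccl3* (108 to 165 against 189.6 to 329.6 CPM) and *Cxcl10* (68.8 to 156 against 144 to 373 CPM), named after their values were seen, did not pass, with adjusted p values of 0.686, 0.177 and 0.26 by edgeR. Among 10 chemokine receptors *Cxcr2*, which marks neutrophils, was the 1 that passed by edgeR (by DESeq2 *Cx3cr1* also fell), and it was lower in CD11c+ libraries (0.688 to 3.74 against 42.5 to 99.3 CPM).

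Other leading genes had varied roles. *Ikbke*, the kinase IKK-epsilon of interferon induction, was at 12.5, 16.5 and 10.4 CPM in CD11c- libraries and at 108, 71.1 and 82.4 CPM in CD11c+ libraries (log2 2.70 ± 0.31, adjusted p = 2.18e-05, edgeR). *Il2rg*, the shared gamma chain of interleukin receptors, was at 21.8, 25.5 and 15.5 against 119, 77.2 and 104 CPM (log2 2.24 ± 0.23, adjusted p = 5.78e-06, edgeR). *Dnase1l3*, a secreted enzyme that digests extracellular DNA, was even across libraries of a subset, at 2.24, 1.89 and 1.92 against 15.5, 19.3 and 19.9 CPM (log2 3.02 ± 0.21, adjusted p = 2.82e-07, edgeR). These 3 genes rose whichever EAE library was left out. The lectin-like receptor gene *Klrb1b* was at 3.07 to 5.76 against 21.1 to 32.4 CPM, *Ly6i* at 3.20 to 3.84 against 10.3 to 25.1 CPM, and the protease inhibitor genes *Serpina3g* and *Serpina3f* at 2.88 to 4.91 against 12.2 to 34.2 CPM and 4.59 to 8.69 against 19.9 to 34.3 CPM. *Klrb1b*, *Ly6i* and the *Serpina3* genes have close paralogs among which reads can be split, so their levels are uncertain.

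Of 30 type I interferon-stimulated genes tested, 5 rose and none fell: *Ifi44*, *Oasl1*, *Oas1g*, *Irf7* and *Mx1*. The median log2 fold change of the list was 0.64, and 22 of the 30 did not overlap between subsets, all higher in CD11c+, against 12.8% of all genes. *Irf7*, the master regulator of interferon-alpha genes, was at 133, 141 and 102 CPM in CD11c- and 247, 232 and 260.3 CPM in CD11c+ libraries (log2 0.97 ± 0.20, adjusted p = 0.00396, edgeR). *Ifi44* was at 5.76 to 10.01 against 16.6 to 26.7 CPM. Without library 1 *Mx1* no longer passed and *Usp18* did. *Ifi44* passed in every fit that left out 1 EAE library, whereas *Irf7*, *Oas1g* and *Mx1* failed without CD11c- library 4 or 6, *Oasl1* without CD11c- library 6, *Irf7*, *Oasl1* and *Oas1g* without CD11c+ library 3, and *Oas1g* also without CD11c+ library 2. In the fit of the 6 EAE libraries alone only *Oasl1* and *Irf7* passed. None of 13 interferon-gamma inducible GTPases passed in either direction by edgeR (7 were higher at an unadjusted p under 0.05, and *Gbp8* and *Iigp1* passed by DESeq2), and their median was 0.40. *Gbp2*, picked after its values were seen, was at 435, 750.0 and 461 against 612, 915 and 1143 CPM, so the subsets overlapped.

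Of 10 MHC class II genes tested, 5 rose in CD11c+ microglia and none fell. Class II molecules present peptides to CD4 T cells, and *Cd74*, the invariant chain, escorts them to the endosome. *Cd74* was at 1124, 1152 and 917 CPM in CD11c- libraries and at 3726, 2530 and 2743 CPM in CD11c+ libraries (log2 1.49 ± 0.23, adjusted p = 0.000332, edgeR). The chain genes *H2-Aa* (273, 282 and 229.9 against 647, 699.8 and 752 CPM), *H2-Ab1* (345, 337 and 281 against 814, 667 and 788 CPM) and *H2-Eb1* (232, 243 and 209 against 448, 542 and 616 CPM) did not overlap between subsets. Their log2 fold changes were 1.42 ± 0.25, 1.24 ± 0.18 and 1.23 ± 0.22, with adjusted p values of 0.00101, 0.000251 and 0.00109 by edgeR. The fifth was *H2-Oa*, which encodes a chain of the peptide exchange inhibitor DO (26.9 to 30.0 against 46.7 to 52.4 CPM, log2 0.79 ± 0.17, adjusted p = 0.00567, edgeR). *H2-Oa* lost its call when any 1 of the 6 libraries was left out, and *H2-Aa* and *H2-Eb1* lost theirs without CD11c- library 6. Without library 1, *H2-DMa* passed instead of *H2-Oa*. *Ciita*, the coactivator of class II transcription, was at 27.3, 35.2 and 29.3 against 34.0, 44.3 and 60.3 CPM (adjusted p = 0.121, edgeR), so its libraries overlapped. In class I and peptide loading genes, 1 of 17 rose by edgeR (*H2-Q7*, 71.8 to 119 against 204 to 245 CPM, a gene with close paralogs), and it lost its call without CD11c- library 6 or CD11c+ library 3 and in the fit of the 6 EAE libraries alone. *H2-T22* also rose without library 1.

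Class II promoters carry a conserved Y box, the site of the factor NF-Y, and the 150 bases before the RefSeq start (GRCm38.p6) are shown for the 3 chain genes called or risen here that have a window in the table, with Y box letters (ATTGG or its complement CCAAT) in capitals. They lie at chr17:34092229-34092378 on the plus strand (*H2-Oa*), chr17:34287824-34287973 on the minus strand (*H2-Aa*) and chr17:34305717-34305866 on the plus strand (*H2-Eb1*).
H2-Oa: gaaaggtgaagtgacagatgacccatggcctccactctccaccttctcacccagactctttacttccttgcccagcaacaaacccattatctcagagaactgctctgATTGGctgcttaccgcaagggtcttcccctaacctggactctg
H2-Aa: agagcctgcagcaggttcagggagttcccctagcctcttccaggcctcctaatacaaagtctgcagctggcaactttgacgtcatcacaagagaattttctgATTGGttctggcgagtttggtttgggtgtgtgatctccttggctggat
H2-Eb1: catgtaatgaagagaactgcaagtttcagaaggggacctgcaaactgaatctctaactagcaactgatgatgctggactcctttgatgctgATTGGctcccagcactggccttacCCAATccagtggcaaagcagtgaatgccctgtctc
The Y box letters began 43, 48 and 59 bases before the start in the 3 windows, with a second match 35 bases before the start of *H2-Eb1*. On either strand they occurred in the 150 base window of 7 of 8 class II genes with a window, against 24.5% of all 32851 windows and 28.8% of the first windows of tested genes, and in 20 (22.2%) of the 90 called higher genes that matched a window. The interferon response core (GAAA, any 2 bases, then GAAA), searched on both strands over 250 bases before the start, was found for 6 of these 90 genes (6.67%), namely *Ifi205*, *Ifi206*, *Igf2bp3*, *Oas1g*, *Saa3* and *Spp1*, against 2.98% of all windows and 2.87% of those of tested genes. The STAT site letters TTCNNNGAA, searched in the same way, were found for 3 of the 90 (3.33%), against 7.02% and 6.09%. A match is only a description of the letters in the window.

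**Figure D2:**
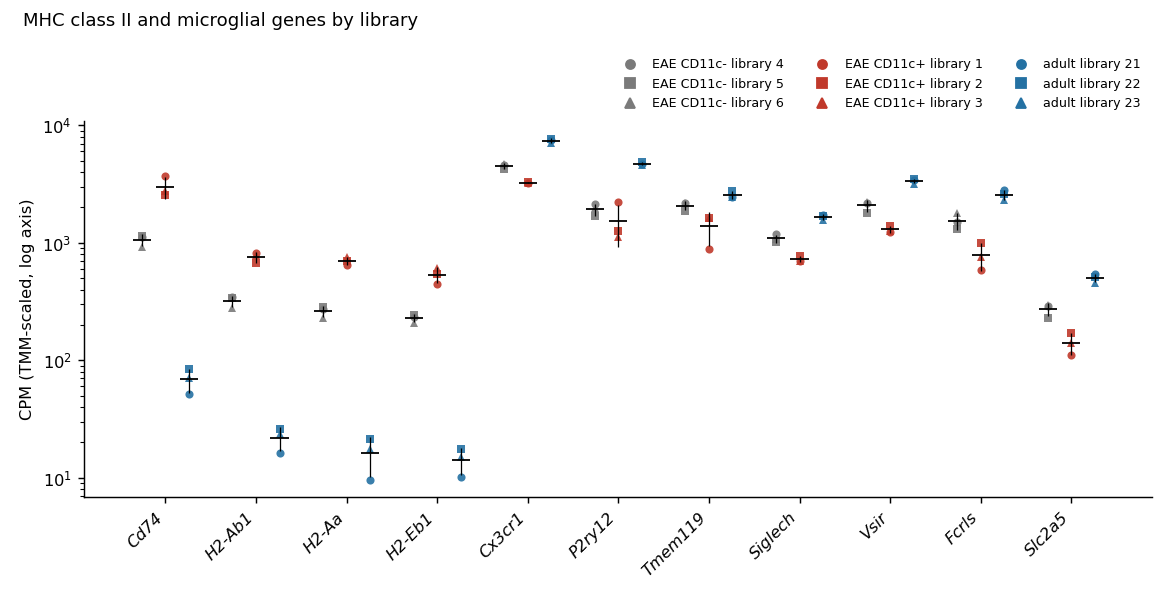
Scaled CPM (log axis) of 4 MHC class II genes and 7 microglial genes in CD11c- libraries 4, 5 and 6 (grey), CD11c+ libraries 1, 2 and 3 (red) and adult libraries 21, 22 and 23 (blue); lines mark the mean and 1 SD of 3 libraries. The class II genes are higher in both EAE subsets than in adult libraries and higher in CD11c+ than in CD11c-, while the microglial genes lie close together or lower in CD11c+, with library 1 (circle) apart for *P2ry12* and *Tmem119*.

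By count with all libraries, the list of phagocytosis and lipid handling held the most risen genes, though the study's list held a larger share (16 of 20). Of 36 tested, 18 rose (17 without library 1 and 12 in the fit of the 6 EAE libraries alone) and 1 fell, with a median log2 fold change of 0.64 (0.69 without library 1). The 18 include *Itgax*, the gene behind the sort, and *Gpnmb*, *Clec7a*, *Spp1* and *Fabp5*, which are also on the study's list. For these genes the direction is not independent evidence. *Cst7*, an inhibitor of lysosomal cathepsins, was at 40.3, 50.3 and 35.3 CPM in CD11c- and 275, 179 and 230.4 CPM in CD11c+ libraries (log2 2.43 ± 0.21, adjusted p = 1.13e-06, edgeR). The following 3 were singled out after their values were seen. *Apoe*, the main lipid carrier of the brain, was at 1946, 1056 and 1062 CPM in CD11c- and 4966, 5041 and 4125 CPM in CD11c+ libraries (log2 1.80 ± 0.30, adjusted p = 0.000621, edgeR). *Axl*, a receptor for dying cells, was at 244, 257 and 156 against 704, 702 and 866 CPM, and *Lpl*, which releases fatty acids from lipoproteins, at 41.2, 43.6 and 44.9 against 184, 158 and 124 CPM, with log2 fold changes of 1.79 ± 0.24 and 1.84 ± 0.18. All 4 kept their call whichever EAE library was left out. The phagocytic receptor *Trem2* and its adaptor *Tyrobp* did not pass and were also picked after their values were seen, at 854 to 1148 against 821 to 1053 CPM and 487 to 580.2 against 634 to 692 CPM (adjusted p = 0.821 and 0.112, edgeR). *Cd300lb*, an activating receptor of myeloid cells, was the member that fell, at 11.3, 14.9 and 27.4 against 3.10, 3.49 and 1.66 CPM.

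In the lysosome list, 2 of 31 rose (*Glb1* and *Gaa*, the acid beta-galactosidase and alpha-glucosidase) and none fell, and without library 1 *Psap*, *Grn* and *Npc2* rose too. *Glb1* was at 116 to 132 against 191 to 208 CPM and *Gaa* at 191 to 215 against 275 to 312 CPM. Both log2 differences were under 1 (0.65 ± 0.11 and 0.58 ± 0.12), neither gene passed in the fit of the 6 EAE libraries alone, and *Gaa* lost its call without CD11c- library 5 or 6 or CD11c+ library 2 or 3. Of 27 proteases and inhibitors, 7 rose, including the cathepsin gene *Ctsb* (3924 to 4816 against 6252 to 8044 CPM), and 5 fell, of which *Mmp8*, *Mmp9*, *Slpi* and *Adam8* are on the neutrophil lists and *Adam19* is not. In the fit of the 6 EAE libraries alone 3 rose, without *Ctsb* (adjusted p = 0.0175, edgeR). None of 23 sterol and fatty acid synthesis genes passed by edgeR or DESeq2, and 1 was lower at an unadjusted p under 0.05.

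In smaller lists the following moved. Of 17 complement genes, 3 rose and none fell by edgeR (5 rose, and *Cd55* and *C5ar2* fell, by DESeq2): *Itgax* itself, *C2*, which forms the classical C3 convertase (4.69 to 5.38 against 10.8 to 20.0 CPM), and *Serping1*, which encodes the C1 inhibitor (2.81 to 6.33 against 16.7 to 18.4 CPM, a call lost without CD11c- library 4 or 6). Of 22 growth factor and matrix genes, 5 rose (*Igf1*, *Lox*, *Pdgfa*, *Loxl3* and *Fn1*) and *Vcan* fell, whereas in the fit of the 6 EAE libraries alone *Igf1* was the 1 that rose. *Fn1*, which encodes fibronectin, was at 489, 549 and 249 against 969.7, 921 and 1441 CPM, and lost its call without CD11c- library 4 or 6 or CD11c+ library 3. *Pdgfa* lost its call without CD11c- library 5 or 6, *Loxl3* without CD11c- library 5 or 6 or CD11c+ library 1, and *Vcan* without CD11c- library 5 or CD11c+ library 2. Of 16 costimulation and checkpoint genes *Cd274*, which encodes PD-L1, rose (109, 178 and 104 against 249, 222 and 278 CPM), whereas *Vsir*, which encodes the checkpoint protein VISTA, and *Cd276* fell. *Vsir* was at 2198, 1809 and 2229 against 1239, 1402 and 1271 CPM (log2 -0.67 ± 0.11, adjusted p = 0.000429, edgeR), and *Cd274* (log2 0.94 ± 0.20, adjusted p = 0.00524, edgeR) lost its call without CD11c- library 4 or 6 or CD11c+ library 3. None of these 3 passed in the fit of the 6 EAE libraries alone. *Cd40*, the receptor for T cell help, missed the threshold with all libraries and passed without library 1 (6.83, 10.5 and 4.35 against 16.9, 18.1 and 29.6 CPM, adjusted p = 0.0121 with all libraries and 0.00903 without library 1, edgeR). *Acod1*, which makes itaconate, rose from 9.28, 21.9 and 16.4 to 56.6, 46.5 and 87.7 CPM (log2 1.98 ± 0.30, adjusted p = 0.000325, and 0.011 in the fit of the 6 EAE libraries alone, edgeR). *Tlr2*, a sensor of bacterial lipoproteins, rose (271 to 344 against 535 to 685 CPM) and the flagellin sensor *Tlr5* fell (9.54 to 15.1 against 2.62 to 4.30 CPM). In the iron list, *Fth1*, the ferritin heavy chain, rose (950.0 to 1069 against 1942 to 2110 CPM) and *Slc40a1*, the iron exporter ferroportin, fell (151, 121 and 160.1 against 64.5, 62.9 and 50.3 CPM, log2 -1.28 ± 0.19, adjusted p = 0.000267, edgeR). In all, 3 of 13 iron genes rose and 3 fell, of which *Ltf* and *Lcn2* are neutrophil genes.

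Several further lists held members that rose and members that fell. Of 28 cytokines and receptors, *Il2rg* and *Il18bp*, a decoy receptor for interleukin 18 (38.3 to 57.8 against 75.7 to 83.3 CPM), rose, and *Il6ra* and the neutrophil list gene *Il1r2* fell. *Il18bp* and *Il6ra* lost their calls without CD11c- library 4 or 6 or CD11c+ library 3, *Il6ra* also without CD11c+ library 2, and *Il2rg* alone passed in the fit of the 6 EAE libraries. Of 44 transcription factors, *Bhlhe40*, a known repressor of *Il10*, rose (14.2, 15.2 and 11.1 against 35.6, 36.0 and 40.1 CPM, log2 1.44 ± 0.24, adjusted p = 0.00057, edgeR), as did *Irf7*, and *Cebpe* and *Cebpd*, factors of granulocyte development and inflammation, fell (*Cebpd* not without CD11c- library 6). Of 28 scavenger receptors and lectins, 5 rose, with the secreted *Lgals3bp* at 1033 to 1316 against 2098 to 2399 CPM, and 5 fell, of which *Clec4d* and *Clec4e* are on a neutrophil list and *Clec4a2* was at 43.1 to 54.4 against 20.7 to 25.5 CPM. Only *Clec4a2* and *Siglece* fell without library 1, and the fifth, *Clec12a*, lost its call without any 1 of the 6 libraries. In oxidative metabolism, 4 of 25 rose (*Acod1*, *Gpx3*, *Hmox1* and *Sod1*) and *Alox5* and *Arg2* fell, against 7 that rose and 1 that fell without library 1. *Sod1* lost its call without any 1 of the 6 libraries, *Hmox1* without CD11c- library 5 or 6, *Alox5* without CD11c- library 6, and *Arg2* without that library or any single CD11c+ library. Without library 1, *Nos2*, the inducible nitric oxide synthase, and *Arg1*, which competes with it for arginine, rose (both picked after their values were seen). *Nos2* was at 0.533, 0.756 and 1.41 against 1.38, 5.98 and 5.65 CPM (adjusted p = 0.0112 with all libraries and 0.00101 without library 1, edgeR), and *Arg1* at 6.08, 4.91 and 2.94 against 5.502, 22.05 and 19.7 CPM (adjusted p = 0.0157 and 0.00074). Library 1 was within the CD11c- range for both. Of 22 Toll-like and Fc receptors 1 rose and 2 fell (*Tlr2*, *Tlr5* and *Fcrls* as described), whereas without library 1 *Fcgr4* also rose and *Fcrls* did not pass. Of 18 integrins *Itgax* rose and *Itga9* and the neutrophil gene *Itgb2l* fell (*Itga5* and *Itgal* also rose without library 1), and of 13 purine receptors and ectonucleotidases *P2rx4* and *P2ry14* rose and *Nt5e* fell, none of these 3 in the fit of the 6 EAE libraries alone or without CD11c- library 6.

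Microglial identity genes were present at high levels in both subsets. *Tmem119* was at 2197, 1859 and 2170 CPM in CD11c- libraries and at 880.2, 1630 and 1628 CPM in CD11c+ libraries, with library 1 the lowest (log2 -0.59 ± 0.21, adjusted p = 0.108, edgeR), while the purine receptor gene *P2ry12* was highest in library 1 (2139, 1692 and 1969 against 2205, 1249 and 1116 CPM). Without library 1 the *P2ry12* difference went from -0.34 to -0.71 (adjusted p = 0.595 and 0.15, edgeR). Of 29 homeostatic genes, 3 fell (*Slc2a5*, *Fcrls* and *Ltc4s*) and none rose by edgeR, whereas 6 fell and *C1qa* rose by DESeq2. At an unadjusted p under 0.05 by edgeR, 12 were lower and 1 was higher. The median log2 fold change was -0.34, with 16 of the 29 lower in CD11c+ without overlap against 12.9% of all genes. *Slc2a5*, the fructose transporter of microglia, was at 289.8, 231 and 295 against 109.9, 170.2 and 140.4 CPM (log2 -0.95 ± 0.15, adjusted p = 0.000341, edgeR), and *Fcrls* at 1492, 1301 and 1795 against 583, 1004 and 758 CPM (log2 -0.97 ± 0.19, adjusted p = 0.0025, edgeR). Without library 1 only *Slc2a5* passed, with *Fcrls* at an adjusted p of 0.0101 by edgeR, and in the fit of the 6 EAE libraries alone none of the 3 passed. *Cx3cr1* (4237 to 4715 against 3226 to 3283 CPM) and *Siglech* (1009 to 1179 against 704 to 778 CPM) did not overlap between subsets but missed the threshold (adjusted p = 0.0134 and 0.013, edgeR). Of 13 microglial markers and signature genes that the study names, *Fcrls* alone passed by edgeR, and *Fcrls*, *Siglech* and *Cx3cr1* fell by DESeq2.

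Among lists of growth and metabolism, the ribosomal one held the most risen genes. Of 34 ribosomal protein genes, 5 rose and none fell (8 rose without library 1, 9 by DESeq2, 1 in the fit of the 6 EAE libraries alone), led by *Rps20* at 55.5 to 65.9 against 115 to 130.2 CPM (log2 1.01 ± 0.13, adjusted p = 6.55e-05, edgeR). In 15 of the 34 the CD11c+ libraries lay above the CD11c- libraries without overlap, against 12.8% of all genes. The median log2 fold change of the list was 0.45. Of 23 glycolysis genes *Tpi1* rose and the glucose transporter *Slc2a3* fell, and *Pkm*, *Aldoa* and *Slc2a6* also rose without library 1. Of 30 nuclear genes of the respiratory chain *Cox6c* rose, and *Atp5c1* and *Ndufa4* too without library 1. *Tpi1* lost its call without CD11c- library 4 or 5 or CD11c+ library 2 or 3, *Cox6c* without any single library except CD11c+ library 1, and both in the fit of the 6 EAE libraries alone. None of 28 DNA replication and 25 mitosis genes passed with all libraries by edgeR or DESeq2 (6 and 1 were higher at an unadjusted p under 0.05), while *Gins1*, *Gins2* and *E2f1* rose without library 1. The median log2 fold changes of the 4 lists of glycolysis, respiratory chain, replication and mitosis were 0.30, 0.27, 0.12 and 0.22 with all libraries and 0.54, 0.48, 0.39 and 0.47 without library 1, which was not the highest of the 3 CD11c+ libraries for any replication or mitosis gene. *Mki67*, picked after its values were seen, was at 196, 309 and 233 against 355, 237 and 356 CPM, so the subsets overlapped.

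Immediate early genes, which are induced within minutes of stimulation and also by tissue dissociation, had the lowest median of the 32 lists plotted (log2 -0.69). Of these genes, 14 of 20 were lower in CD11c+ libraries without overlap, against 12.9% of all genes. The examples were picked after their values were seen. *Fos* was at 1826, 1949 and 1787 against 713, 1190 and 940.2 CPM and *Klf4* at 95.8, 117 and 115 against 33.9, 57.8 and 38.6 CPM. None of the 20 passed by edgeR or DESeq2, nor at an unadjusted p under 0.05, with adjusted p values of 0.519 and 0.325 for these by edgeR, in a fit whose spread includes the adult and neonatal libraries. In the fit of the 6 EAE libraries alone *Klf4*, *Jund* and *Dusp1* passed (adjusted p = 0.00654, 0.0018 and 0.00835, edgeR).

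**Figure D3:**
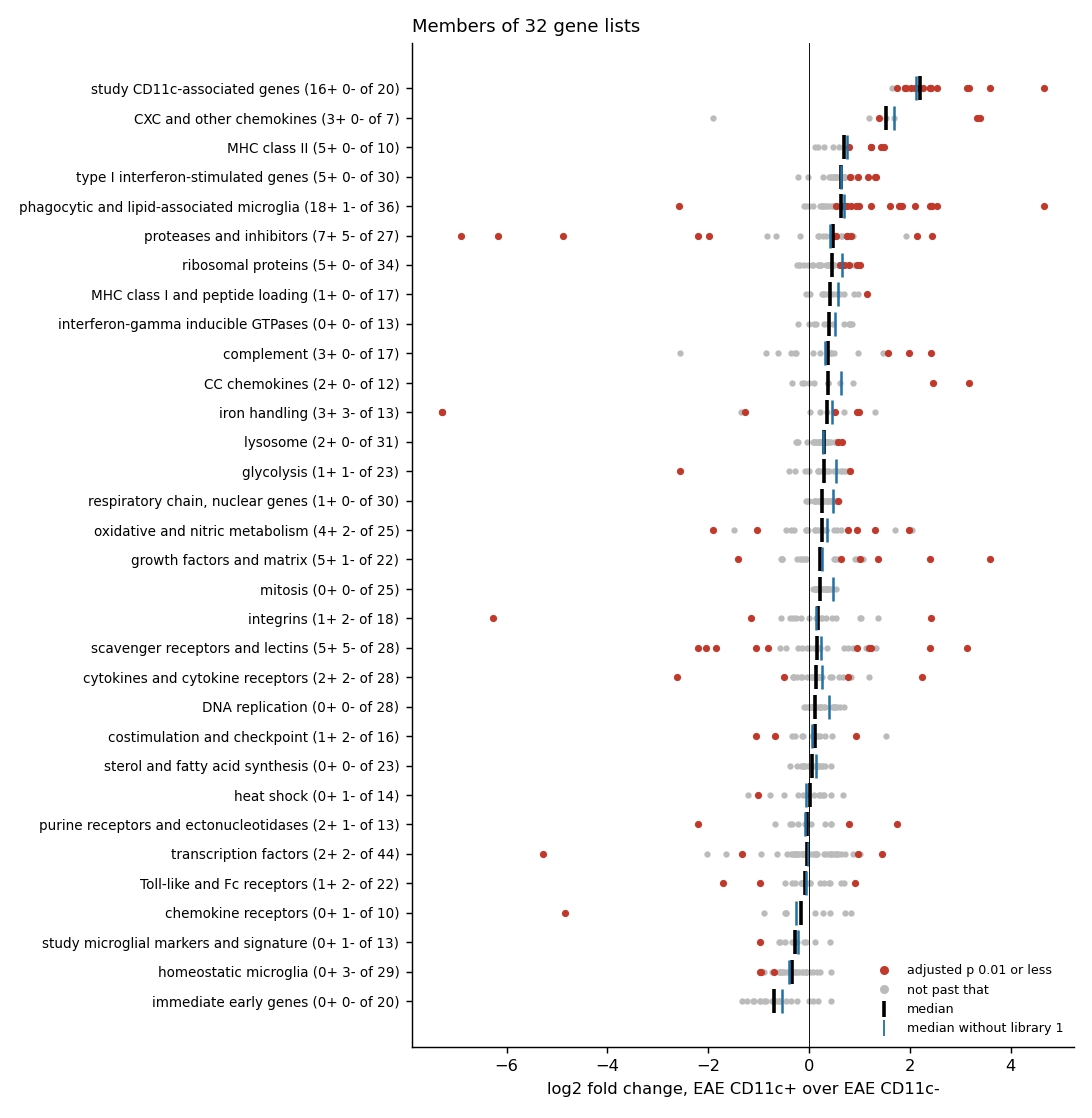
Log2 fold change (EAE CD11c+ over CD11c-) of each tested member of 32 gene lists, with members at an adjusted p of 0.01 or less in red and the others in grey; black bars mark the list's median and blue bars its median without library 1, and the numbers beside each name count members that rose (+) and fell (-). The study's CD11c-associated genes and the CXC chemokines have the medians farthest to the right, and the immediate early and homeostatic genes the medians farthest to the left.

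The 202 called lower genes outside the neutrophil lists ranged widely in level, with a CD11c+ mean under 1 CPM for 83 of them and of at least 10 CPM for 42. Genes under 1 CPM in every CD11c+ library, such as *Rnf144a* and *Crispld2*, entered the test only through the CD11c- libraries, where they are high. The reverse held for higher genes such as *Colec12*. *Rnf144a*, a ubiquitin ligase gene (chromosome 12, 26300964 to 26415254, minus strand), was at 18.3, 25.1 and 32.1 CPM in CD11c- libraries and at 0.344, 0.249 and 0.276 CPM in CD11c+ libraries, a level under 3 counts a library. *Crispld2*, which encodes a secreted lipopolysaccharide-binding protein, was at 18.0, 32.1 and 50.4 against 0.516, 0.498 and 0.689 CPM (log2 -5.35 ± 0.46, adjusted p = 1.14e-06, edgeR), and *Lrrk2*, a kinase gene known from inherited Parkinson's disease, at 23.3, 34.4 and 49.6 against 1.03, 0.623 and 1.24 CPM (log2 -4.89 ± 0.48, adjusted p = 3.79e-06, edgeR). Library 6 was the highest of the CD11c- libraries for these genes. *Cyfip2*, a regulator of actin assembly, followed at 50.03, 57.9 and 101 against 1.89, 2.37 and 3.03 CPM, the nuclear envelope gene *Syne1* at 41.0, 39.9 and 55.7 against 1.89, 1.74 and 1.10 CPM, and *Nfe2*, a transcription factor of blood cell lineages, at 17.5, 20.4 and 33.7 against 0.516, 1.25 and 0.551 CPM. Their log2 fold changes were -4.68 ± 0.49, -4.65 ± 0.54 and -4.51 ± 0.46. All 6 genes were past the threshold whichever EAE library was left out. *Abca13*, *Rflnb* and *Sept5* had a like profile, at 22.1 to 34.5, 27.0 to 50.2 and 14.5 to 26.0 CPM in CD11c- libraries and up to 1.25 CPM in CD11c+ libraries.

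These lower genes moved with the neutrophil genes across the CD11c- libraries. Library 6, which had the largest neutrophil granule sum, was the highest CD11c- library for 50 of the 54 called neutrophil list genes and for 175 of the 202 called genes outside the lists, against 31.3% of all genes. The median ratio of library 6 to the mean of libraries 4 and 5 was 1.77 in the neutrophil lists and 1.55 outside them, against 0.997 over all genes. Whether the lower genes came from neutrophils in the CD11c- sort was not tested, and in bulk samples fewer cells of a type and less RNA per cell cannot be told apart. *Hdc*, which makes histamine in basophils, mast cells and neutrophils, took most of the CD11c- sums of 10 basophil and mast cell markers (50.9, 49.96 and 109.9 against 3.78, 10.7 and 7.45 CPM), and the mast cell markers *Mcpt4* and *Tpsab1* had no count in any of the 6 libraries.

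A smaller set of lower genes did not follow library 6. In 27 of the 202 genes library 6 was not the highest CD11c- library, and for 20 of these the adult mean lay above the CD11c- mean, against 47 of all 202 and 50.5% of all genes tested. The following examples were singled out after their values were seen. *Mgll*, the monoacylglycerol lipase that degrades an endocannabinoid, was at 40.5, 31.4 and 36.5 CPM in CD11c- and 14.4, 20.8 and 17.8 CPM in CD11c+ libraries (log2 -1.01 ± 0.15, adjusted p = 0.000211, edgeR), with an adult mean of 87.8 CPM. *Mtss1*, a membrane curvature and actin gene, was at 46.6, 38.2 and 44.7 against 22.7, 18.8 and 18.8 CPM, and *Upk1b*, a tetraspanin gene, at 41.3, 26.2 and 35.3 against 17.9, 14.7 and 13.4 CPM, with adult means of 98.1 and 96.7 CPM. *Mgll* and *Upk1b* missed the threshold in the fit of the 6 EAE libraries alone (adjusted p = 0.0117 and 0.0141, edgeR). For these 3 genes the CD11c+ libraries were lowest, CD11c- libraries intermediate and the adult mean highest. Among genes chosen by the naming rule, the integrin chain gene *Itga9* (84.5, 67.8 and 87.1 against 40.6, 35.1 and 32.1 CPM) and *Cd276* (29.8, 25.6 and 30.6 against 9.28, 17.1 and 14.1 CPM) had the same order of groups, with adult means of 194 and 68.6 CPM. Library 6 was the highest CD11c- library for both, so they are not among the 27. *Cd276* missed the threshold in the fit of the 6 EAE libraries alone. *Itga9* (log2 -1.15 ± 0.14, adjusted p = 2.74e-05, edgeR) passed whichever EAE library was left out. *Hspa1b*, an inducible heat shock gene with a near-identical neighbour, was also highest in library 6 and so outside the 27, at 151, 116 and 225 against 81.5, 87.9 and 72.9 CPM. The *Hspa1b* call was lost without CD11c- library 4 or 6 or CD11c+ library 2 or 3. Of the 14 heat shock genes *Hspa1b* alone passed by edgeR, and *Hspe1* rose as well by DESeq2.

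**Figure D4:**
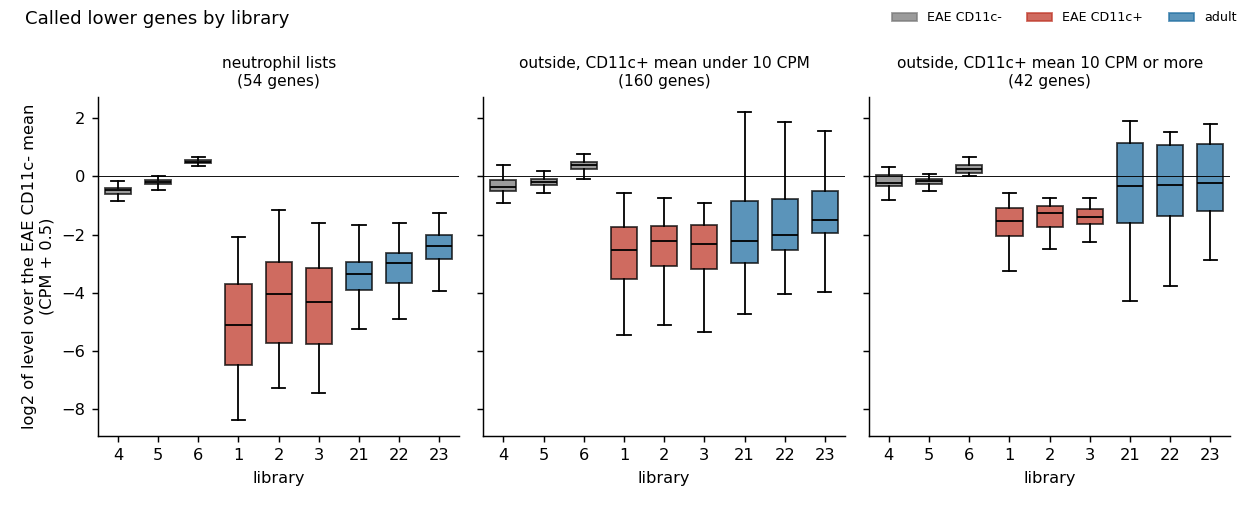
Log2 ratio of each called lower gene's level (CPM + 0.5) to its CD11c- mean in CD11c- libraries 4, 5 and 6 (grey), CD11c+ libraries 1, 2 and 3 (red) and adult libraries 21, 22 and 23 (blue), for 54 neutrophil list genes and for 160 and 42 genes outside the lists with a CD11c+ mean under 10 CPM or of at least 10 CPM; boxes span the quartiles, lines mark medians and whiskers reach to 1.5 times the box height. Library 6 is the highest grey box in each panel, and the adult whiskers reach above the CD11c- mean only outside the neutrophil lists.

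Markers of other cells that the gate could hold were counted for both subsets. Blood monocyte markers (18 genes) summed to 1245 to 1483 CPM in CD11c- libraries and 1153 to 1777 CPM in the CD11c+ ones. Of 17 tested, *Fn1* rose and 5 fell. Among these, *Chil3* and *Hp* are also on the neutrophil lists, *Vcan* was at 10.2 to 12.8 against 3.24 to 4.69 CPM, and *Ly6c2* was at 24.4 to 50.3 against 2.58 to 8.27 CPM (a call lost without CD11c- library 6 or CD11c+ library 1 or 2). The monocyte receptor gene *Ccr2*, picked after its values were seen, was at 20.6, 22.4 and 19.5 against 12.6, 38.2 and 32.5 CPM (adjusted p = 0.5, edgeR). Border macrophage markers (13 genes) summed to 818.7 to 1007 against 627.4 to 815 CPM, and none of the 11 tested passed by edgeR or DESeq2 (2 higher and 1 lower at an unadjusted p under 0.05), with *Mrc1* at 36.3 to 37.6 against 37.4 to 48.0 CPM. Conventional dendritic cell markers (16 genes) summed to 434 to 514.3 against 344.7 to 430.4 CPM, and of 11 tested *Fscn1* alone passed, and it fell (155 to 224 against 90.3 to 132 CPM), with a call lost when any library but CD11c- library 5 was left out. Plasmacytoid dendritic cell markers (10 genes, among them *Siglech*, which microglia express) summed to 1402 to 1556 against 1146 to 1274 CPM, and of 6 tested *Il3ra* and *Cox6a2* rose, both lost in most fits that left out 1 library. T cell markers summed to 46.5 to 64.3 CPM over 22 genes with none of 6 tested past the threshold (4 higher and 1 lower at an unadjusted p under 0.05, and *Cd5* higher by DESeq2), no natural killer marker of 14 reached 1 CPM in 3 libraries, and of the B cell markers *Ms4a1* and *Pax5* had no count in any of the 6 libraries. Single markers of endothelium (*Flt1*, 1.02 to 3.59 against 6.35 to 12.4 CPM), oligodendrocyte precursors (*Cspg4*, 0.768 to 1.61 against 3.95 to 5.38 CPM) and B cells (*Cd22*, 24.4 to 37.3 against 60.7 to 90.3 CPM) rose, while the sums of the endothelial, oligodendrocyte, astrocyte and B cell lists overlapped between subsets in each case. *Gp9*, a platelet gene, fell (6.52 to 7.68 against 0.172 to 2.74 CPM), a call lost without CD11c- library 6 or CD11c+ library 3. *Flt1*, *Cd22* and *Gp9* missed the threshold in the fit of the 6 EAE libraries alone. Eosinophil markers (8 genes) summed to 92.1 to 110.3 CPM in CD11c- libraries against 125 to 145 CPM in CD11c+ libraries without overlap, nearly all of it from *Siglecf*, the 1 member tested (adjusted p = 0.0509, edgeR), while *Epx*, *Prg2*, *Ear1* and *Il5ra* had no count in any of the 6 libraries. In the other lists none of 7 astrocyte markers passed by edgeR or DESeq2 (1 higher at an unadjusted p under 0.05), and the 1 neuronal marker tested did not pass. Whether other cells took part in any difference above was not tested.

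**Figure D5:**
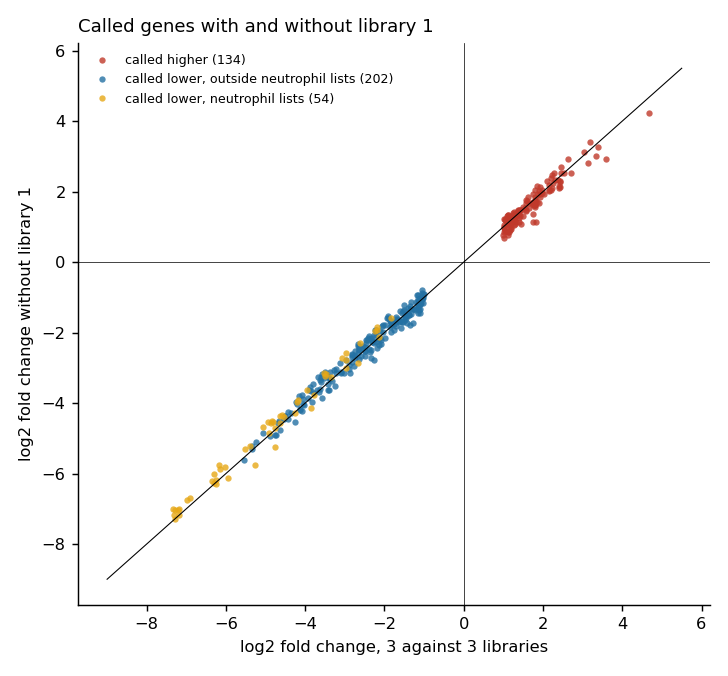
Log2 fold change of the 390 called genes with all 6 EAE libraries (horizontal axis) and without CD11c+ library 1 (vertical axis); red points are the 134 higher genes, blue points the 202 lower genes outside the neutrophil lists and yellow points the 54 lower genes on them, and the diagonal marks equal values. Every point keeps its side of zero, and *Igf1*, at 3.60 and 2.92, is among the points farthest under the diagonal on the right.

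The same contrast in neonatal mice, whose libraries are not shared with the EAE comparison, gave a reference for its size. The EAE and neonatal mice differed in age, sex, disease, adjuvant and toxin, and these cannot be told apart. The signed log2 difference, CD11c+ minus CD11c-, was higher in EAE than in neonates for 14 genes (0.116%) and lower for 165 (1.37%), by the interaction term of the edgeR model with the thresholds of the calls. These counts include the neutrophil list genes, and genes were filtered on the EAE libraries only. Genes near the floor in neonatal libraries were hard to call by this term, so the 2 counts are not alike. *Cxcl9* differed by 3.34 in EAE and 0.08 in neonates, with an interaction adjusted p of 0.127 (edgeR). *Itgax* differed by 2.42 ± 0.18 in EAE and 5.17 ± 0.18 in neonates on the log2 scale, and *Spp1* by 2.54 ± 0.26 and 5.14 ± 0.25. For *Igf1* the differences were 3.60 ± 0.48 and 3.01 ± 0.29, with an adjusted p of 0.424 for their difference of 0.58 (edgeR). The levels behind the *Igf1* values were far apart, with a mean of 12.3 CPM in EAE CD11c+ and 487 CPM in neonatal CD11c+ libraries.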

How the data were processed

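The series holds 17 RNA-seq libraries of sorted mouse microglia, of which 6 from EAE mice are compared here. The deposited counts are whole read counts per Ensembl gene, which the authors made by aligning single-end reads to GRCm38 with STAR and counting with HTSeq 0.5.4; the strand setting is not given in the sources used here, so antisense partners cannot be told apart. Identifiers with a GENCODE symbol numbered 40254 of 41388, and gene coordinates are those of GRCm38. Counts were tested with edgeR 4.0.16 in R 4.3.3 (TMM, quasi-likelihood F test, prior count 2) in 1 model of 5 groups over 17 libraries, for genes at 1 CPM or more in at least 3 of the 6 libraries, with Benjamini-Hochberg adjustment over 12022 genes. A single gene is said to rise or fall at an adjusted p of 0.01 or less with any fold. Each SE is the size of the log2 fold change divided by the square root of the F statistic of its test. Because the prior count shrinks the fold change, these SE are approximate. Total counts of 5966800 to 10436066 set the depth, and the floors of 3 counts cover counting error only.

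Named genes were the 15 called genes of largest fold change in each direction outside the neutrophil lists with a mean of at least 10 CPM in the higher group, with all libraries and without library 1, up to 4 genes of smallest adjusted p in each list, up to 4 of each neutrophil list, and the genes the study names, and other genes the text names were picked after their values were seen; a gene whose mean in a subset is under 3 counts is given by its levels. The comparison, its members and the 48 gene lists were chosen with earlier results of these data known. Promoter windows are from RefSeq. The test was run on simulated counts of 12022 genes for the EAE comparison, where it called 96 of 100 genes changed 4-fold and 63 of 100 changed 2-fold at the adjusted p of 0.01, and 3 of 11822 unchanged genes. Without library 1 it called 96 and 47 of 100, and 1 of 11822 unchanged genes. Genes of low mean count were not among those changed, and the other genes had the same mean in every group. The simulation therefore does not cover genes near the floor or the real differences between the 5 groups. DESeq2 1.42.0 and limma 3.58.1 served as alternatives. Some genes are not reported here.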

Additional observations from a re-analysis of the deposited data

Results flagged for a closer look

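The subset difference in EAE was set against that in neonatal mice through the interaction term of the same edgeR model. Among the named genes 18 met this rule, 2 with a subset difference higher in EAE and 16 with one lower in EAE, and the EAE minus neonatal difference (log2) is given for each. Genes with few or no neonatal counts, such as *Cxcl13*, were hard to call by this rule.

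Genes higher in CD11c+ cells in both EAE and neonates but by a smaller margin in EAE were *Itgax* (-2.75), *Spp1* (-2.60), *Fam20c*, a secretory pathway kinase (-1.87), and *Hpse* (-1.33). The secreted DNase gene *Dnase1l3* (1.48) was higher in CD11c+ cells in both EAE and neonates, by a larger margin in EAE. The receptor chain gene *Il2rg* (1.66) rose in EAE, while its neonatal log2 difference of 0.58 ± 0.24 (SE) did not pass (adjusted p = 0.117, edgeR). *Dnase1l3*, *Il2rg* and *Hpse* missed the threshold in most fits that left out 1 EAE library, with adjusted p values up to 0.0316, 0.0331 and 0.0341 by edgeR. The iron exporter gene *Slc40a1* (-1.91) and the matrix proteoglycan gene *Vcan* (-2.64) fell in EAE while their neonatal log2 differences were 0.63 ± 0.16 and 1.23 ± 0.28 (SE).

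Genes that fell in EAE and were less reduced or raised in neonatal CD11c+ cells were *Mmp9* (-7.71), *Crispld2* (-5.55), *Syne1* (-4.45), *Lrrk2* (-4.06), the unannotated *F630028O10Rik* (-4.05), *Hdc* (-3.83), *Cxcr2* (-3.68), *Cyfip2* (-3.54), *Sept5* (-3.40) and *Slc2a3* (-2.36). *F630028O10Rik* averaged under 3 counts in the EAE CD11c+ libraries, so its value depends on the prior count and is no bound. *Mmp9*, *Hdc* and *Cxcr2* are on the neutrophil lists, whose granule sums were 7562 to 14380 CPM in EAE CD11c- libraries and 30.0 to 2101 CPM in neonatal libraries, and the part of neutrophil RNA in these differences was not tested. *Hdc* missed the threshold without CD11c- library 6 or CD11c+ library 1 or 3, and *Cyfip2* without CD11c- library 6 or any single CD11c+ library.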

How the results depend on the processing

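No paired analysis was run, because the labels do not record which CD11c+ and CD11c- libraries came from the same pool of mice. Any such pairing is left out of the model. The 134 higher genes became 71 in the fit of only the 6 EAE libraries and 65 at a log2 fold change of 1.5, and ranged from 73 (without CD11c- library 6) to 126 when 1 library was left out. The 202 lower genes outside the neutrophil lists became 133 in the fit of the 6 libraries and ranged from 135 to 192 with 1 library left out, and all 256 lower genes from 184 to 244. The interaction counts, whose alternatives were chosen after seeing the data, moved most: from 14 higher to 32 with DESeq2's Wald test, 41 with edgeR's likelihood ratio test, 24 with limma voom and quality weights, 49 at an adjusted p of 0.05, 5 at a log2 difference of 1.5 and 4 to 13 with 1 EAE library left out (4 without CD11c- library 4 or 6, 9 without CD11c+ library 2 or 3), and from 165 lower to 264, 273 and 270 with the Wald test, the likelihood ratio test and the adjusted p of 0.05, and 96 (without CD11c- library 6) to 141 with 1 EAE library left out. The cause of these moves was not tested. DESeq2's size factors, other filters, leaving out the neutrophil list genes, and leaving out neonatal CD11c- library 17 (added after seeing the data, since mitochondrial genes took 5.10% of its counts) kept the EAE counts within 1.5 times; without library 17 they were 151 higher and 273 lower, and the interaction counts 10 and 157. All 134 higher and 256 lower genes kept their direction in every fit in which they were tested. Of 115 named genes past the threshold, 80 kept it in every fit that left out 1 EAE library and 77 in the fit of the 6 EAE libraries.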
